A study of Mus musculus with 13 samples.

Results

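The libraries described here follow the step from pre-Tregs to de novo Tregs in the thymus of mice with intact c-Rel. The 4 libraries, of 13 in the series, are de novo Tregs replicates 1 and 2 and pre-Tregs replicates 1 and 2. They were chosen by the genotype and the stage that the sample titles give. Both groups carry the genotype cRel+/+Foxp3rfp on the strain C57BL6/J, so mice of both groups carry, as the allele name gives it, a red fluorescent reporter of Foxp3, the Treg lineage factor. CD4 T cells were enriched with magnets and then sorted by flow cytometry, and the RNeasy micro kit served to purify their RNA. No source used here gives the gates of the sort, the age and the sex of the mice or the number of animals per library. No label says that replicates came from separate animals, so the p-values measure the spread between libraries, which may be technical.

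Regulatory T cells (Tregs) restrain immune responses, and many arise in the thymus from CD4 T cells whose receptor binds self antigen strongly. In the common model, such a receptor signal first gives a precursor that bears receptors for interleukin 2 (IL-2), and IL-2 acting through JAK kinases and STAT5 then brings on Foxp3. New Tregs leave the cell cycle, gain receptors for exit and homing, and move from the thymus to lymphoid organs. The NF-kB subunit c-Rel, encoded by Rel, is known as a factor of the precursor step, and libraries from cRel-/- mice enter here for the spread shared by all libraries, for a check of 1 pre-Treg library and for the change without c-Rel.

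The values are reads counted per gene. De novo Tregs held 27455039 and 28235996 counts, and pre-Tregs 13656304 and 13698722 counts, of which 96.41% and 96.09% fell in the 22048 genes listed in all count tables. Levels are given as CPM, counts relative to library size, scaled with edgeR's TMM factors, and a gene is said to have risen or fallen in de novo Tregs at an edgeR adjusted p under 0.05. De novo Tregs and pre-Tregs stand in separate count tables, so stage and table cannot be told apart. Genes that share sequence stood apart from the rest: Ilk, of whose exon length 89.69% is shared with another gene, had 717 and 837 counts in de novo Tregs and 0 in both pre-Treg libraries, at least 136-fold higher against a floor of 3 counts per library. Genes with over 50% of their 50-base stretches found in another gene had a median log2 fold change of 0.62 (459 genes), against 0.00 for all 13058 tested genes and −0.06 for the 8095 genes with no shared exon base and few shared stretches. The median also ran with gene length, between 0.25 in the tenth of genes with the shortest exons and −0.29 in the tenth with the longest. One library of the pre-Treg table, knockout pre-Treg replicate 2, carries a description worded unlike the others and read 24.1 CPM of Ilk, like de novo Tregs. That library also differed from the other 2 knockout pre-Treg libraries with gene length, between a median log2 shift of 0.33 for the shortest and −0.38 for the longest genes. For the lists below the text gives how many called members lay closer, in that 1 library, to knockout de novo Tregs than to the other 2 knockout pre-Treg libraries. The count was 6658 of all 13058 genes, 1003 of the 2101 that rose and 908 of the 1914 that fell. Among called changes of at least 2-fold it was lower, 343 of 917 rises and 274 of 809 falls. The median log2 shift of that library from the other 2 was 0.388 for genes that rose and −0.377 for genes that fell. A low count in a list of large changes therefore does not show the list to be free of this shift. The part that counting had in any result was not tested.

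Of 13058 genes tested, 2101 rose (16.1%) and 1914 fell (14.7%) in de novo Tregs, together 30.7%, and 43.7% had an unadjusted p under 0.05. At least 2-fold changes made up 917 of the rises (7.02%) and 809 of the falls (6.2%). Both de novo Treg libraries lay above both pre-Treg libraries for 4983 genes (38.2%) and below both for 4795 genes (36.7%), so separation of the groups is common here. An exact permutation test of 2 libraries against 2 cannot go below p = 0.333 for a single gene, and the calls rest on a spread shared by all 13 libraries. The counts moved with the libraries included. Leaving out de novo Treg replicate 1 gave 969 rises and 721 falls, and leaving out replicate 2 gave 774 and 500. Leaving out pre-Treg replicate 1 gave 785 and 760, and leaving out pre-Treg replicate 2 gave 865 and 910. Without knockout pre-Treg replicate 2 there were 3142 rises and 2883 falls. With no TMM factors the median of all genes moved to −0.16 and rises made up 35.3% of the calls, against 52.33% with them.

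**Figure D1:**
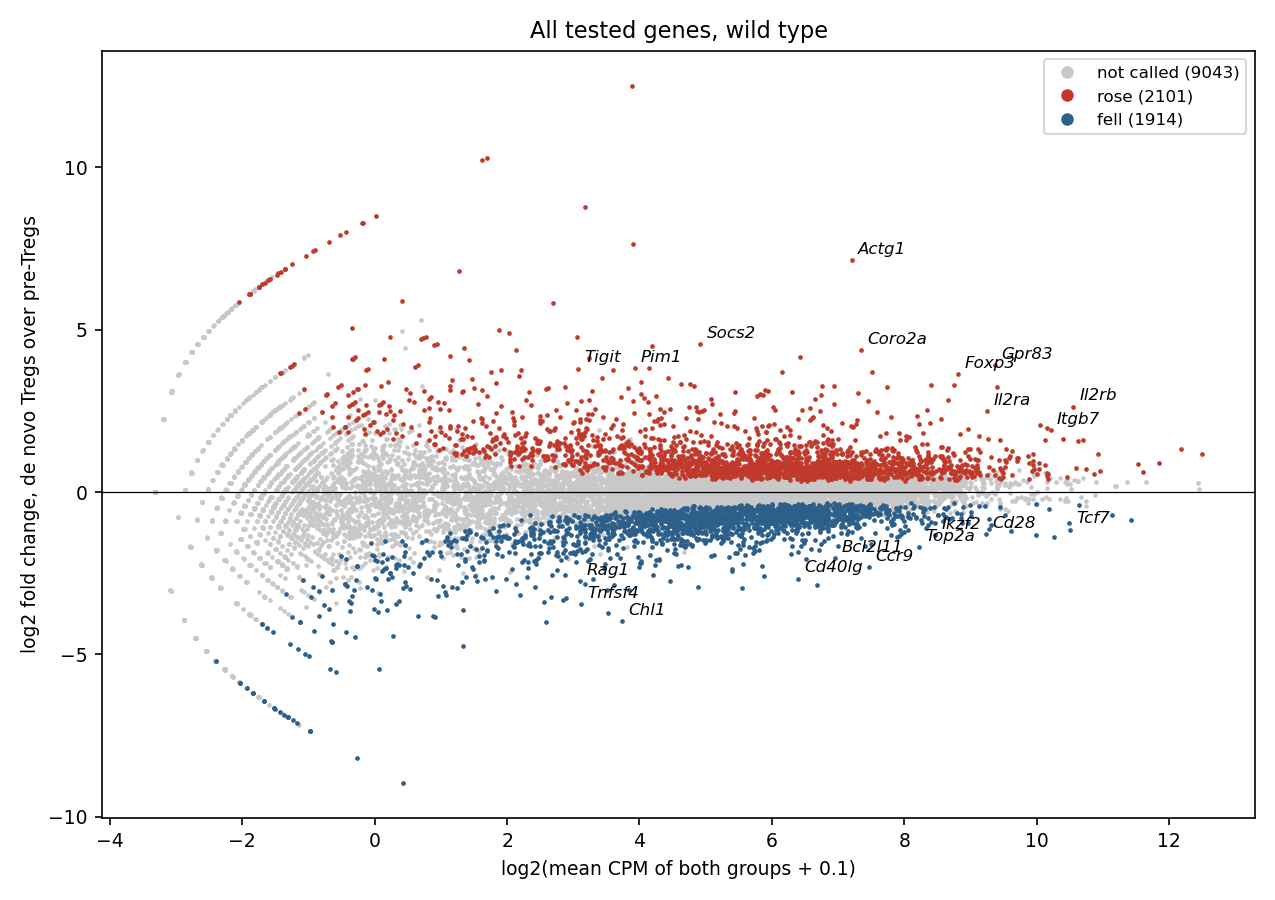
Log2 fold change of wild-type de novo Tregs over pre-Tregs against mean level, log2(mean CPM + 0.1), for each of 13058 tested genes, with 2101 rises in red, 1914 falls in blue and some genes named. The arcs at the left edge are genes at or near 0 counts in 1 stage, whose fitted fold changes depend on the small count edgeR adds, and 34.44% of the stretches of Actg1 are shared with another gene.

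Most genes of the Treg surface and signalling signature rose. Of 29 members, all tested, 23 rose (79.31%), 2 fell (6.897%) and 4 were not called, with a median log2 fold change of 2.25. Of all tested genes 16.1% rose and 14.7% fell. Foxp3 itself (chrX:7579676-7595243 on GRCm38, as the pre-Treg table gives it) had 835 and 826 CPM in de novo Tregs, against 32.49 and 101.3 CPM in pre-Tregs. The groups did not overlap, and pre-Treg replicate 2 held the higher of the pre-Treg levels. Foxp3 was 12.4-fold higher in de novo Tregs (log2 fold change 3.63, SE 0.48, edgeR adjusted p = 0.000321). Another gene shares 21.48% of its exon length, and 22.62% of its stretches are found elsewhere. A gene that a sort gate reads is set by the gate, and how far the reporter or CD25 set the levels of Foxp3 and Il2ra was not tested.

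Gpr83, a G protein-coupled receptor typical of Tregs, had 1239 and 1243 CPM in de novo Tregs and 68.6 and 95.8 CPM in pre-Tregs (log2 fold change 3.92, SE 0.31, edgeR adjusted p = 1.106e-05). Ctla4, the inhibitory receptor that strips B7 ligands from antigen-presenting cells, had 505 and 468 CPM in de novo Tregs and 80.7 and 111 CPM in pre-Tregs (2.35, SE 0.18). Nrp1, a co-receptor that marks thymus-derived Tregs, had 252 and 312 CPM in de novo Tregs and 25.4 and 42.1 CPM in pre-Tregs (3.06, SE 0.32). For all 3 genes the de novo Treg libraries stood far above the pre-Treg libraries. Itgae, the CD103 integrin chain that binds E-cadherin, had 96.4 and 104 CPM in de novo Tregs and 10.8 and 14.1 CPM in pre-Tregs (3.01, SE 0.25). Rgs1, which shortens chemokine receptor signals, rose by 3.23 (SE 0.23) on the log2 scale. Lrrc32, which tethers latent TGF-beta to the Treg surface, and the ectoenzymes Entpd1 and Nt5e, which make adenosine from ATP, also rose, by 3.31, 3.52 and 2.10; these 3 were chosen after their values were seen. Icos and Tnfrsf9 were the members that fell. All 4 fits that left out 1 wild-type library called 21 to 23 members up, and 18 rises were among the 22 members with no shared exon base and few shared stretches. In knockout pre-Treg replicate 2, 2 of the 25 called members lay closer to de novo Tregs.

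**Figure D2:**
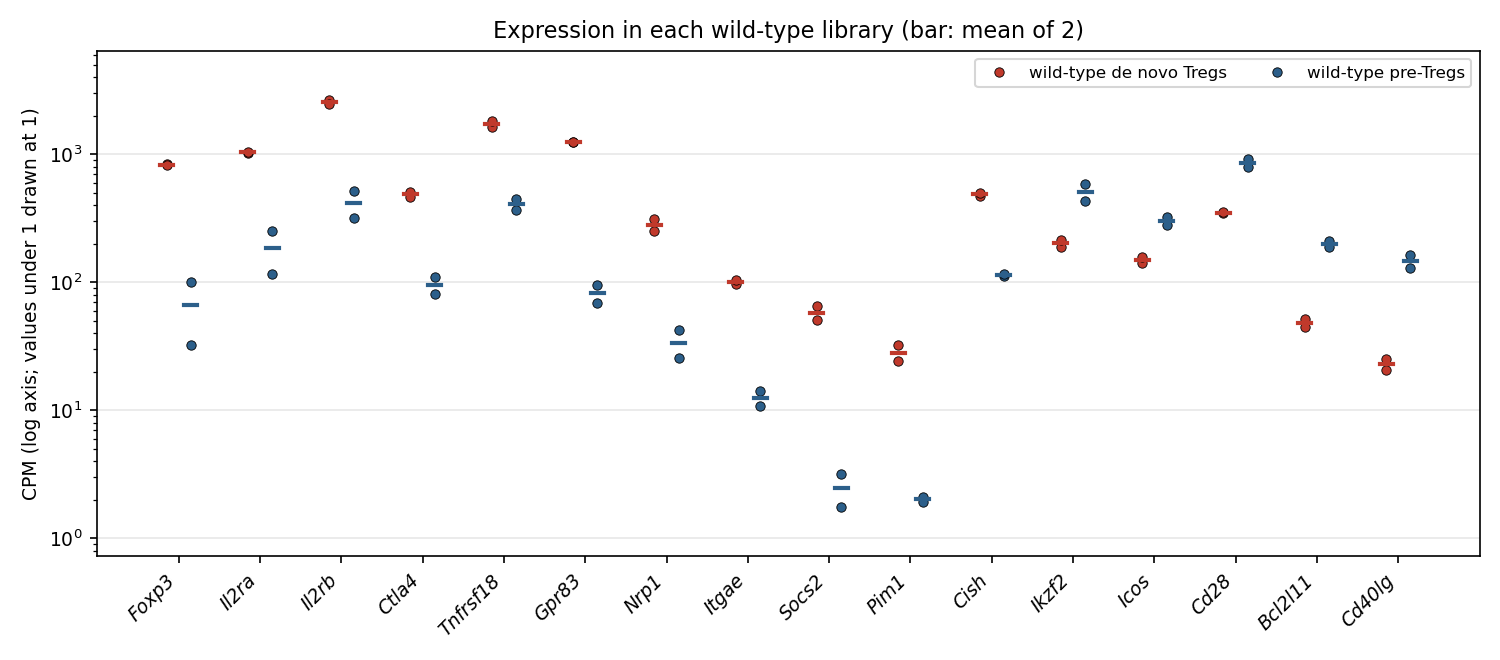
CPM on a log axis of 16 genes in each wild-type library, with de novo Tregs in red left of pre-Tregs in blue and a bar at the mean of 2 libraries. The libraries of the groups do not overlap for any gene shown. Foxp3 to Cish stand higher in de novo Tregs, and Ikzf2, Icos, Cd28, Bcl2l11 and Cd40lg stand lower. The genes drawn are a choice, and named genes with overlapping groups, such as Nr4a1 and Il7r, are not drawn. Among all tested genes both de novo Treg libraries stand above both pre-Treg libraries for 38.2% and below for 36.7%.

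The transcription factors of the lineage moved in both directions. Of 30 factors tested, 6 rose (20%), 8 fell (26.67%) and 16 were not called, against 16.1% and 14.7% of all tested genes. Their median log2 fold change was −0.15. Ikzf4, which encodes the Foxp3 partner Eos, had 370 and 388 CPM in de novo Tregs, against 87.8 and 126 CPM in pre-Tregs (log2 fold change 1.83, SE 0.19, edgeR adjusted p = 5.019e-05). Its relative Ikzf2, which encodes Helios, went the other way, with 190 and 213 CPM in de novo Tregs and 429 and 583 CPM in pre-Tregs (−1.33, SE 0.23, adjusted p = 0.00174). Neither gene had overlapping groups. Wild-type splenic Tregs held 252 and 239 CPM of Ikzf2, nearer to the de novo Treg level than to the pre-Treg level. Knockout pre-Tregs held 190, 111 and 166 CPM and knockout de novo Tregs 170 and 207 CPM, and the difference between the changes of the genotypes was −1.61 (SE 0.31, adjusted p = 0.0756), which missed the threshold.

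Among factors of early T cell development, Tcf7, which encodes TCF1, averaged 902 ± 46.5 CPM in de novo Tregs and 2004 ± 185 CPM in pre-Tregs (SD, n = 2 each; log2 fold change −1.15, SE 0.12). Satb1, a chromatin organizer of thymocytes, had 1073 and 893 CPM in de novo Tregs and 2148 and 1652 CPM in pre-Tregs (−0.95, SE 0.16). Ezh2, the methyltransferase of Polycomb complex PRC2, had 81.1 and 80.4 CPM in de novo Tregs and 144 and 150 CPM in pre-Tregs (−0.87, SE 0.15). The de novo Treg libraries lay below the pre-Treg libraries for each of them. Gata3, a factor of helper T cells that Tregs also use, rose by 1.06 (SE 0.13, edgeR adjusted p = 0.000267). Lef1 (−0.18, SE 0.14) and Bach2 (0.02, SE 0.15), both linked to resting T cells, did not pass the test, and the sign of Lef1 turned with the gene-length offset and that of Bach2 with no TMM factors. The other members that fell were Ikzf1, Id2, Cbfb and Creb1, and the other rises Stat5a, Stat5b and Bcl11b, named here after their values were seen except Stat5a. Of the 14 called factors, 2 lay closer to de novo Tregs in knockout pre-Treg replicate 2.

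Of 35 receptors and signal carriers of cytokines, 24 rose (68.57%), 0 fell and 11 were not called, with a median log2 fold change of 0.79. Of all tested genes 16.1% rose and 14.7% fell. The IL-2 receptor chains Il2ra and Il2rb make the high-affinity receptor with the common chain Il2rg. Il2rb had 2672 and 2488 CPM in de novo Tregs, against 319 and 514 CPM in pre-Tregs (log2 fold change 2.63, SE 0.30, edgeR adjusted p = 0.000117). Il2ra had 1024 and 1043 CPM in de novo Tregs and 117 and 251 CPM in pre-Tregs (2.49, SE 0.40, adjusted p = 0.0011). Il2rg, named after its values were seen, rose less, by 0.48 (SE 0.15). Per kilobase of gene length, the mean level of Il2rb was 926 in de novo Tregs and 149.5 in pre-Tregs, and that of Il2ra 181 in de novo Tregs and 32.2 in pre-Tregs, in RPKM, which divides CPM by gene length. Il7r, the receptor chain for IL-7, overlapped between the groups, with 144 and 132 CPM in de novo Tregs and 153.7 and 99.98 CPM in pre-Tregs, and did not pass the test (0.12, SE 0.31).

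The targets and brakes of the JAK and STAT pathway made the largest moves of the list. Socs2, a feedback inhibitor induced by STAT5, had 50.4 and 65.2 CPM in de novo Tregs, against 1.74 and 3.19 CPM in pre-Tregs (23.4-fold; log2 fold change 4.55, SE 0.29, edgeR adjusted p = 3.877e-06). Pim1, a survival kinase under STAT5, had 24.2 and 32.1 CPM in de novo Tregs and 2.10 and 1.91 CPM in pre-Tregs (3.81, SE 0.24). Cish, a brake on IL-2 and antigen receptor signals, had 472 and 501 CPM in de novo Tregs and 111 and 115 CPM in pre-Tregs (2.10, SE 0.28). No de novo Treg library of these genes came near a pre-Treg library. Socs3, which restrains IL-6 family receptors, had 56.3 and 68.6 CPM in de novo Tregs and 12.98 and 10.83 CPM in pre-Tregs (2.39, SE 0.15), and Socs1, a brake on interferon and IL-2 signals, rose by 1.75 (SE 0.30). Stat3 (1.32, SE 0.13), Stat5a (1.09, SE 0.15) and Il10ra, a receptor chain for IL-10 (1.87, SE 0.14), rose as well. Fits that left out 1 wild-type library called 16 to 20 members up, and 10 rises were among the 19 members with no shared exon base and few shared stretches. Of the 24 risen members, 3 lay closer to de novo Tregs in knockout pre-Treg replicate 2.

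The promoter windows of Cish and Socs3 are shown because both genes are classic STAT targets that rose here, and both windows hold the letters TTCNNNGAA, the core that STAT5 is known to bind. The windows are 300 bases around the annotated start from RefSeq on GRCm38.p6, written on the strand of the gene, with each match in capitals. The Cish window is chr9:107296409-107296708 on the plus strand and the Socs3 window chr11:117969317-117969616 on the minus strand.
Cish: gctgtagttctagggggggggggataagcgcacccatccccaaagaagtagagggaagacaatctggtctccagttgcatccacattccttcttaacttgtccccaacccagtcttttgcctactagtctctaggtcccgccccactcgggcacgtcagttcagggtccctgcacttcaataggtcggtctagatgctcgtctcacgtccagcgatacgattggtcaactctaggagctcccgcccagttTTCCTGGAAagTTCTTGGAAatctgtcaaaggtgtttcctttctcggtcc
Socs3: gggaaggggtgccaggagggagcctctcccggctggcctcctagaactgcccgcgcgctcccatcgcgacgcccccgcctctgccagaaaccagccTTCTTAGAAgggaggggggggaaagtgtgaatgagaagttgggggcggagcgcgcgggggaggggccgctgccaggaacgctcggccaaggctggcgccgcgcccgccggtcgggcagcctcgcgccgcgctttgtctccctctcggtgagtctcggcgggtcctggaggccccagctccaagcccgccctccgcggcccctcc
Searched on both strands, which read alike for this palindrome, the motif stood in 5 of 33 windows of the cytokine list (15.2%), in 8.3% of all 32851 windows and in 8.51% of the windows of genes that rose. A match is a description of letters and not a bound site.

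Costimulatory receptors of the TNF family rose in 4 of 14 members (28.57%) and fell in 2 (14.29%), against 16.1% and 14.7% of all tested genes. Tnfrsf4, which encodes OX40, had 2404 and 2623 CPM in de novo Tregs, against 742 and 902 CPM in pre-Tregs (log2 fold change 1.61, SE 0.22). Tnfrsf18, which encodes GITR, had 1623 and 1811 CPM in de novo Tregs and 365 and 448 CPM in pre-Tregs (2.08, SE 0.33), and 27.17% of its exon length is shared with another gene. Both receptors are known to tune Treg development in the thymus, and for both the groups stood apart. Tnfrsf9, which encodes 4-1BB, had 563.5 and 563.0 CPM in de novo Tregs and 885.4 and 937.5 CPM in pre-Tregs (−0.69, SE 0.21, edgeR adjusted p = 0.0283), and it was lost in each of the 4 fits that left out 1 wild-type library, with adjusted p up to 0.126. None of the 6 called members lay closer to de novo Tregs in knockout pre-Treg replicate 2. Their median log2 shift in that library from the other 2 knockout pre-Treg libraries was still 0.667, against −0.0154 for all tested genes.

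Checkpoint and CD28 family receptors moved in both directions, with Ctla4 higher and both Cd28 and Icos lower. Rises and falls were each 30.77% of the tested members, against 16.1% and 14.7% of all tested genes. Of 13 checkpoint and CD28 family members, 4 rose (Ctla4, Tigit, Vsir and Havcr2) and 4 fell (Cd28, Icos, Cd160 and Btla); Havcr2 and Btla were named after their values were seen. Cd28, the main costimulatory receptor for IL-2 production, had 347 and 353 CPM in de novo Tregs, against 914 and 798 CPM in pre-Tregs (log2 fold change −1.29, SE 0.19, edgeR adjusted p = 0.000643). Icos had 142 and 158 CPM in de novo Tregs and 326.5 and 278 CPM in pre-Tregs (−1.01, SE 0.16). Vsir, which encodes the inhibitory receptor VISTA, had 218 and 242 CPM in de novo Tregs and 130 and 104 CPM in pre-Tregs (0.97, SE 0.17). The groups did not overlap for these 3 genes, but in knockout pre-Treg replicate 2 both Cd28 and Icos lay closer to de novo Tregs, as did 4 of the 8 called members.

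Rel, the c-Rel gene, did not differ at this precision: de novo Tregs had 104 and 102 CPM and pre-Tregs 104 and 99.6 CPM, a log2 fold change of 0.02 (SE 0.15), whose sign turned with no TMM factors. Of 11 NF-kB subunits and IkB proteins, 5 rose (45.45%), 0 fell and 6 were not called, against 16.1% risen and 14.7% fallen of all tested genes. The rises numbered 8 without knockout pre-Treg replicate 2, 8 with only the 4 wild-type thymic libraries and 3 with only the 9 thymic libraries. Nfkbia, the inhibitor IkB-alpha that NF-kB induces against itself, had 1123 and 1004 CPM in de novo Tregs, against 408 and 439 CPM in pre-Tregs (1.33, SE 0.18, edgeR adjusted p = 0.000331). Nfkbiz, a nuclear IkB protein, had 167 and 156 CPM in de novo Tregs and 60.2 and 52.8 CPM in pre-Tregs (1.51, SE 0.16). Both genes stood higher in each de novo Treg library than in any pre-Treg library. Rela, the p65 subunit, rose by 0.89 (SE 0.17) and Nfkb2, the p100 subunit of the alternative pathway, by 0.79 (SE 0.23), while Nfkb1 was not called (0.27, SE 0.15). Each fit without 1 wild-type library called 3 of the 11, losing among others Nfkb2 (adjusted p up to 0.17), and in knockout pre-Treg replicate 2, 3 of the 5 risen members lay closer to de novo Tregs.

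Of 25 upstream NF-kB regulators, 9 rose (36%) and 1, Traf3, fell (4%), against 16.1% and 14.7% of all tested genes. Traf1, an adaptor of TNF receptors, had 361 and 422 CPM in de novo Tregs and 134 and 124 CPM in pre-Tregs (log2 fold change 1.60, SE 0.18). Tnfaip3, the deubiquitinase A20 that ends NF-kB signals, had 546 and 278 CPM in de novo Tregs and 170 and 177 CPM in pre-Tregs (1.25, SE 0.24), so the de novo Treg libraries lay further apart from each other than replicate 2 lay from the pre-Tregs. Map3k14, which encodes NIK of the alternative pathway, rose by 1.01 (SE 0.21). Leaving out de novo Treg replicate 2 or pre-Treg replicate 2 reduced the 9 rises to 5. Traf3, named after its values were seen, had a log2 fold change of −0.62 (SE 0.19) and was not called in any fit without 1 wild-type library. In knockout pre-Treg replicate 2, 4 of the 10 called regulators lay closer to de novo Tregs.

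The early response genes of the T cell receptor split. The markers of receptor signal strength did not pass the test: Nr4a1 had 643 and 446 CPM in de novo Tregs and 592 and 537 CPM in pre-Tregs, and Egr2 had 74.0 and 79.3 CPM in de novo Tregs and 80.1 and 74.8 CPM in pre-Tregs. The groups overlapped for both. Cd69, an early activation marker (log2 fold change −0.10, SE 0.26), and Cd5, a brake whose level follows signal strength (0.26, SE 0.25), did not pass either. Of 36 members, 10 rose (27.78%) and 4 fell (11.11%), against 16.1% and 14.7% of all tested genes, with a median of 0.14. Myc, a driver of growth, had 376 and 357 CPM in de novo Tregs and 115 and 128 CPM in pre-Tregs (1.59, SE 0.14, edgeR adjusted p = 1.545e-05).

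Members that rose also included the AP-1 genes Junb, Jun and Fos, immediate early genes that cell handling is known to induce. Junb had 696 and 398 CPM in de novo Tregs and 126 and 123 CPM in pre-Tregs (log2 fold change 2.14, SE 0.35). Knockout pre-Tregs held 292.4, 483.7 and 752 CPM of Junb and knockout de novo Tregs 342.9 and 362 CPM. The difference between the changes of the genotypes was 2.67 (SE 0.46, edgeR adjusted p = 0.0504), which missed the threshold. Fos had 196 and 25.4 CPM in de novo Tregs and 14.1 and 11.2 CPM in pre-Tregs, and Jun 202 and 191 CPM in de novo Tregs and 13.6 and 27.3 CPM in pre-Tregs; both were named after their values were seen. De novo Treg replicate 1 was the high library for Fos, Junb and Tnfaip3. Of 13 dissociation and heat shock genes 1 rose and 1 fell (7.692% each), against 16.1% and 14.7% of all tested genes. Their summed level was 3760 and 3220 CPM in de novo Tregs and 3022 and 3973 CPM in pre-Tregs. The part that handling had in these results was not tested.

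The members that fell were Cd40lg, Tnfsf11, Il2 and Dusp6, a phosphatase that restrains ERK (log2 fold change −1.10, SE 0.17), whereas Spry1, another brake on that pathway, rose (1.49, SE 0.23). Cd40lg, the ligand that gives help to B cells, had 25.2 and 20.6 CPM in de novo Tregs, against 163 and 129 CPM in pre-Tregs (log2 fold change −2.67, SE 0.21, edgeR adjusted p = 1.139e-05). Tnfsf11, which encodes RANKL, the signal of thymocytes to the thymic medulla, had 19.7 and 17.5 CPM in de novo Tregs and 70.3 and 65.7 CPM in pre-Tregs (−1.87, SE 0.15). Tnfsf4, the ligand of OX40 and no member of the list, was among the largest falls of all genes, with 1.23 and 1.64 CPM in de novo Tregs and 16.1 and 15.5 CPM in pre-Tregs (−3.46, SE 0.32). For each ligand the de novo Treg libraries stood below the pre-Treg libraries, while the receptor genes Tnfrsf4 and Tnfrsf18 stood above. Il2 itself, named after its values were seen, was low in all 4 libraries, with 0.192 and 0.223 CPM in de novo Tregs and 1.81 and 2.55 CPM in pre-Tregs (−3.36, SE 0.97, adjusted p = 0.0215). The helper cytokine genes Il21 (−3.18, SE 0.39) and Il4 (−2.48, SE 0.61) fell too. In knockout pre-Treg replicate 2, 4 of the 14 called early response genes lay closer to de novo Tregs.

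Most genes of G2 phase and mitosis fell in de novo Tregs. Of 30 genes of G2 phase and mitosis, 27 fell (90%), 0 rose and 3 were not called, with a median log2 fold change of −1.40. Of all tested genes 14.7% fell and 16.1% rose. Mki67, a marker of cycling cells, had 69.0 and 67.1 CPM in de novo Tregs, against 185 and 165 CPM in pre-Tregs (−1.36, SE 0.18, edgeR adjusted p = 0.000281). Cdk1, the kinase that starts mitosis, had 29.2 and 22.8 CPM in de novo Tregs and 86.1 and 76.9 CPM in pre-Tregs (−1.65, SE 0.22). Kif23, a motor of cell separation, had 28.4 and 22.5 CPM in de novo Tregs and 105 and 68.5 CPM in pre-Tregs (−1.77, SE 0.22). Every de novo Treg library lay below every pre-Treg library for these genes, and none was at 0. Hmmr, a spindle protein (−1.88, SE 0.26), and the kinetochore genes Cenpe (−1.73, SE 0.22) and Cenpf (−1.56, SE 0.21) fell alike. The number that fell was 26, 22 and 27 without de novo Treg replicate 1, pre-Treg replicate 1 and pre-Treg replicate 2, and 16 without de novo Treg replicate 2. In bulk libraries, fewer dividing cells and less RNA per cell cannot be told apart.

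Of 31 genes of DNA replication, 17 fell and 0 rose, with a median log2 fold change of −0.69, and 10 fell without de novo Treg replicate 2. The falls made up 54.84% of the replication genes, against 14.7% of all tested genes. Rrm2, which makes deoxynucleotides, had 95.0 and 85.4 CPM in de novo Tregs and 294 and 249 CPM in pre-Tregs (−1.59, SE 0.25). Rfc4, a loader of the replication clamp, had 32.5 and 33.2 CPM in de novo Tregs and 74.9 and 81.4 CPM in pre-Tregs (−1.25, SE 0.15). The groups stood apart for both, whereas the replicative helicase gene Mcm6, named after its values were seen, overlapped between them (−0.20, SE 0.18). Of 13 G1 cyclins and CDK inhibitors only Ccnd2 rose (0.83, SE 0.17), and it was lost without de novo Treg replicate 2 or pre-Treg replicate 1; Cdkn2c (−1.28, SE 0.22) and Cdk4 fell, and Cdk4 was lost in every fit without 1 wild-type library. Of these G1 genes 7.692% rose and 15.38% fell, against 16.1% and 14.7% of all tested genes. In knockout pre-Treg replicate 2, none of the 27 and 17 called members of the G2/M and replication lists lay closer to de novo Tregs. The numbers that fell among members with no shared exon base and few shared stretches were 18 of 18 and 13 of 21. Replication-dependent histone genes did not follow: of 53 tested, 8 rose and 2 fell, with a median log2 fold change of 0.59, and fits without 1 wild-type library called 1 to 3 rises. The histone shares were 15.09% risen and 3.774% fallen, against 16.1% and 14.7% of all tested genes, so the rises were near the share of all genes. Of the 10 called histone genes, 7 lay closer to de novo Tregs in knockout pre-Treg replicate 2.

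Promoter windows of Kif23, Cdk1 and Hmmr are shown because most windows of the G2/M list share the letters TTTGAA, the cell cycle homology element through which such promoters are known to be silenced in resting cells. They are 300-base RefSeq windows on GRCm38.p6, written on the strand of the gene with each match in capitals. Kif23 lies at chr9:61946750-61947049, Cdk1 at chr10:69352863-69353162 and Hmmr at chr11:40733388-40733687, all on the minus strand.
Kif23: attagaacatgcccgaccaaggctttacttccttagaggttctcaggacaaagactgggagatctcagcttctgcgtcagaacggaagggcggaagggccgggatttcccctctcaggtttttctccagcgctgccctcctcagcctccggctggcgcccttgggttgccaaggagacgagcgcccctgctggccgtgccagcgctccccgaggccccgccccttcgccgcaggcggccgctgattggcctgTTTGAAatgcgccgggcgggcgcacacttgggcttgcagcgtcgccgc
Cdk1: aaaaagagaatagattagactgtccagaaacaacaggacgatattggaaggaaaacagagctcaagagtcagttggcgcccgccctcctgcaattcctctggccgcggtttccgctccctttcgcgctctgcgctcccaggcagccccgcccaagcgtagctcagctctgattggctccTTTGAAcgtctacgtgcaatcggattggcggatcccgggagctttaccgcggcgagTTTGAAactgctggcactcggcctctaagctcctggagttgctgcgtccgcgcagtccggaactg
Hmmr: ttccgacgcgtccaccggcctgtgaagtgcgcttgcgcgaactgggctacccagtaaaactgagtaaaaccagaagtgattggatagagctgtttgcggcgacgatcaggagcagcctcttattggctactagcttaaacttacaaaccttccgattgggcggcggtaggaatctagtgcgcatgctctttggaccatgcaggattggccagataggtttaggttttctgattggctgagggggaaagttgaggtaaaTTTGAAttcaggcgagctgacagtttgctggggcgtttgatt
On either strand, TTTGAA or its complement TTCAAA stood in 22 of 28 windows of the G2/M list (78.6%), in 17.9% of all 32851 windows, in 14.8% of windows of genes that fell and in 10.6% of windows of genes that rose. The match describes the letters of these promoters and says nothing of what binds there.

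**Figure D3:**
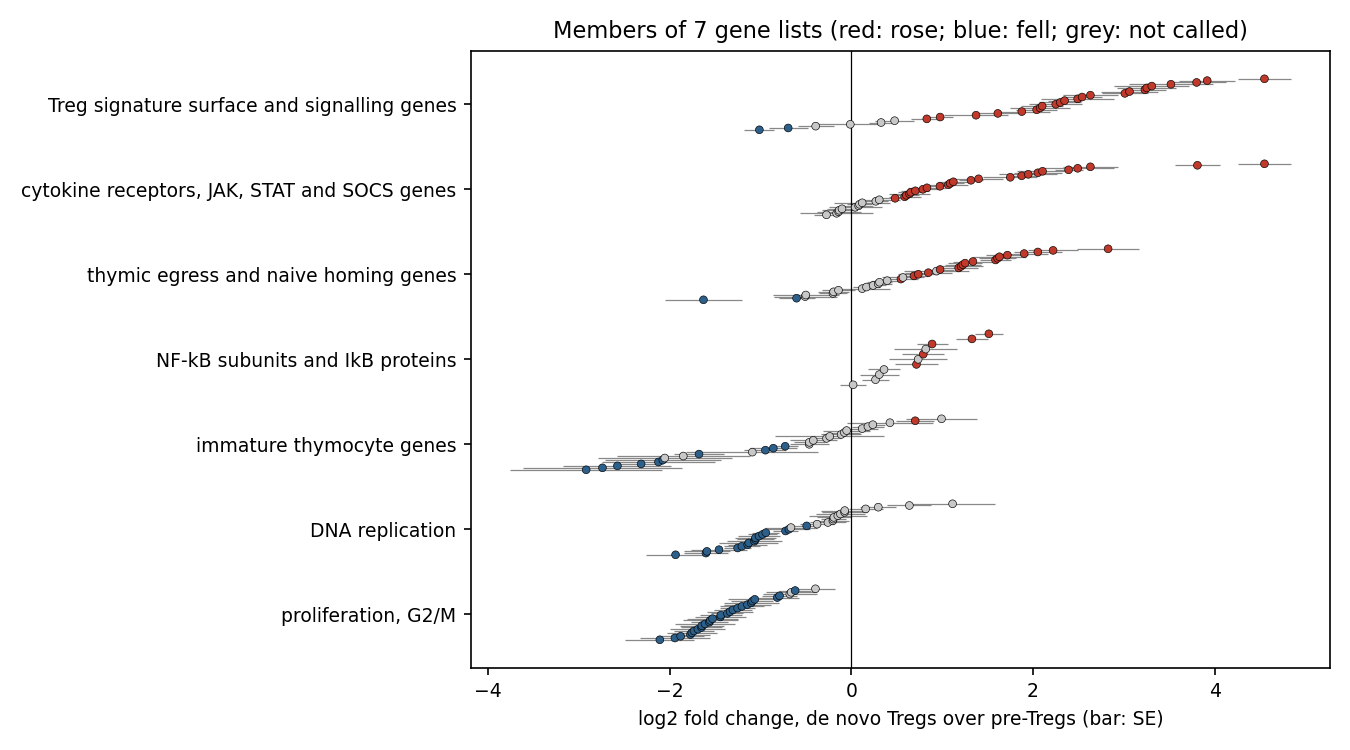
Log2 fold change of wild-type de novo Tregs over pre-Tregs for each tested member of 7 gene lists, with the SE as a bar, sorted within the list. Members of the Treg signature and of the cytokine list lie mostly to the right of 0, and members of the DNA replication and G2/M lists mostly to the left.

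Of 27 genes of immature thymocytes tested, 10 fell (37.04%), 1 rose (3.704%) and 16 were not called, with a median log2 fold change of −0.46. Of all tested genes 14.7% fell and 16.1% rose. Ccr9, which draws thymocytes to the thymic cortex and T cells to the gut, had 60.9 and 57.9 CPM in de novo Tregs, against 326 and 264 CPM in pre-Tregs (−2.31, SE 0.24, edgeR adjusted p = 5.925e-05). Cd24a, lost as thymocytes mature, had 19.1 and 14.7 CPM in de novo Tregs and 85.8 and 116 CPM in pre-Tregs (−2.57, SE 0.59). Themis, needed for positive selection, had 63.8 and 58.4 CPM in de novo Tregs and 211 and 179.5 CPM in pre-Tregs (−1.68, SE 0.27). These genes showed no overlap between the groups. The recombinase genes Rag1 and Rag2, whose RNA decays after receptor rearrangement, varied among pre-Tregs: Rag1 had 2.15 and 2.27 CPM in de novo Tregs and 5.80 and 23.7 CPM in pre-Tregs, and Rag2 had 0.9585 and 1.49 CPM in de novo Tregs and 3.63 and 14.9 CPM in pre-Tregs. Both were lost in 3 of the 4 fits that left out 1 wild-type library, and in knockout pre-Treg replicate 2 both, with 6 of the 11 called members, lay closer to de novo Tregs. The number that fell was 5 and 3 without de novo Treg replicates 1 and 2, and 9 and 4 without pre-Treg replicates 1 and 2.

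Genes of thymic exit and naive homing rose in 18 of 33 members (54.55%) and fell in 2 (6.061%), with a median log2 fold change of 0.74. Of all tested genes 16.1% rose and 14.7% fell. Klf2, the factor that turns on exit receptors, had 917.5 and 801 CPM in de novo Tregs, against 263 and 259 CPM in pre-Tregs (1.72, SE 0.23, edgeR adjusted p = 0.000367). Its target S1pr1, the receptor through which T cells follow sphingosine 1-phosphate out of the thymus, had 805 and 784 CPM in de novo Tregs and 367.5 and 311 CPM in pre-Tregs (1.23, SE 0.20). All de novo Treg libraries stood above the pre-Treg libraries for both genes. S1pr4 (2.22, SE 0.27), Klf6 (1.61, SE 0.20), the GTPase gene Gimap3 (1.59, SE 0.17) and the class I gene H2-Q7 (2.83, SE 0.34) rose as well; 23.26% of the stretches of H2-Q7 are shared with related class I genes. The members that fell, Qpct and Emb, were named after their values were seen. Fits without 1 wild-type library called 14 to 16 rises, and in knockout pre-Treg replicate 2, 4 of the 20 called members lay closer to de novo Tregs.

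Chemokine receptors moved both ways, 5 of 17 up and 5 down (29.41% each, against 16.1% and 14.7% of all tested genes). Ccr7, which guides cells to the thymic medulla and lymph nodes, had 1964 and 1911 CPM in de novo Tregs and 1266 and 1058 CPM in pre-Tregs (log2 fold change 0.74, SE 0.22, edgeR adjusted p = 0.0239), but it was lost in every fit without 1 wild-type library (adjusted p up to 0.167). Ccr6 had 168 and 191 CPM in de novo Tregs and 15.3 and 48.7 CPM in pre-Tregs (2.49, SE 0.48), and Cxcr4 had 29.9 and 24.0 CPM in de novo Tregs and 12.2 and 11.5 CPM in pre-Tregs (1.18, SE 0.22). Ccr4, a receptor of newly selected thymocytes, had 10.05 and 11.32 CPM in de novo Tregs and 28.5 and 20.04 CPM in pre-Tregs (−1.18, SE 0.33), and it was lost in 3 of these fits. Ccr8, a receptor found on Tregs, overlapped between the groups (−0.21, SE 0.20). The rises numbered 3 in each fit without 1 wild-type library, and the falls 1 to 4. Of the 10 called receptors, 1, Ccr7, lay closer to de novo Tregs in knockout pre-Treg replicate 2.

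Survival genes of the Bcl2 family did not move together. Bcl2l11, the cell killer Bim, had 51.72 and 44.95 CPM in de novo Tregs, against 209 and 190 CPM in pre-Tregs (log2 fold change −2.04, SE 0.17, edgeR adjusted p = 1.31e-05). Its counterparts Bbc3, which encodes Puma, and Pmaip1, which encodes Noxa, rose: Bbc3 had 51.9 and 41.6 CPM in de novo Tregs and 13.2 and 14.2 CPM in pre-Tregs (1.77, SE 0.32), and Pmaip1 had 13.3 and 8.04 CPM in de novo Tregs and 2.54 and 4.89 CPM in pre-Tregs (1.52, SE 0.37). The groups did not overlap for any of the 3. The protective genes Bcl2 (0.36, SE 0.17), Bcl2l1 (0.24, SE 0.13) and Mcl1 (0.10, SE 0.15) did not pass the test; Bcl2 had 389 and 348 CPM in de novo Tregs and 279 and 297 CPM in pre-Tregs. Bcl2l1 was 1 of the 11 genes whose change differed between genotypes (difference 1.19, SE 0.18, edgeR adjusted p = 0.0275), with 31.8 and 35.7 CPM in knockout de novo Tregs and 59.9, 66.9 and 68.2 CPM in knockout pre-Tregs. Of 20 apoptosis activators 6 rose (30%) and 4 fell (20%), and of 11 inhibitors 2 rose (18.18%). Of all tested genes 16.1% rose and 14.7% fell. The activator rises numbered 4 and 3 without de novo Treg replicates 1 and 2, and 2 and 5 without pre-Treg replicates 1 and 2; the falls numbered 4, 1, 2 and 3 in the same order. In knockout pre-Treg replicate 2, 4 of the 10 called activators, Bbc3 and Bad among them, and 1 of the 2 called inhibitors lay closer to de novo Tregs, and Pmaip1 was lost without de novo Treg replicate 1 or pre-Treg replicate 1.

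Effector and suppressive genes of Tregs rose in 14 of 32 members (43.75%) and fell in 0, with a median log2 fold change of 1.11. Of all tested genes 16.1% rose and 14.7% fell. Il1r2, the decoy receptor for IL-1, had 84.0 and 71.5 CPM in de novo Tregs, against 3.19 and 15.2 CPM in pre-Tregs (3.08, SE 0.51), and was named after its values were seen. Il1rl1, which encodes the IL-33 receptor ST2 of tissue Tregs, had 8.47 and 12.85 CPM in de novo Tregs and 1.09 and 1.27 CPM in pre-Tregs (3.17, SE 0.29). Klrg1, a receptor of differentiated Tregs, had 5.48 and 9.87 CPM in de novo Tregs and 0.145 and 0.354 CPM in pre-Tregs (4.91, SE 0.48). Most of these genes were low in both thymic stages, and splenic wild-type Tregs held 47.3 and 47.3 CPM of Klrg1. Tgfb1, the suppressive cytokine gene, was high in both stages and not called (0.33, SE 0.16). Fits without 1 wild-type library called 12 or 13 rises, and in knockout pre-Treg replicate 2, 2 of the 14 risen members lay closer to de novo Tregs.

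Whether the change in wild type differed from the change without c-Rel was tested as the difference of the 2 changes, over libraries of 4 groups that share none. The knockout libraries carry the genotype cRel-/-Foxp3rfp on the same strain, with 2 de novo Treg and 3 pre-Treg libraries, and are called knockout by that label. Rel itself had 92.04 and 101.3 CPM in knockout de novo Tregs, against 104 and 102 CPM in wild-type de novo Tregs, and 54.9, 52.2 and 65.9 CPM in knockout pre-Tregs, against 104 and 99.6 CPM in wild-type pre-Tregs. Rel thus stood lower in every knockout pre-Treg library than in both wild-type pre-Treg libraries, but near the wild-type level in knockout de novo Tregs. The labels do not give the deleted stretch and counts per gene do not show where reads fall. Rel counts therefore cannot settle the genotype, and every direction below rests on the label. The difference was called for 11 of 13058 genes (0.0842%), 10 of them higher in wild type (0.0766%) and 1 lower (0.00766%), and 9 of the 11 were also called within wild type (0.0689% of all tested). DESeq2 called 213 and limma-voom 3, and without knockout pre-Treg replicate 2 edgeR called 127.

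Of the 9 genes, 4 are members of the effector list (Nkg7, Fgl2, Ccl5 and Klrg1). Nkg7, a granule membrane protein, had 175 and 171 CPM in wild-type de novo Tregs and 46.7 and 78.2 CPM in wild-type pre-Tregs; the knockout had 24.4 and 22.6 CPM in de novo Tregs and 77.2, 63.4 and 62.4 CPM in pre-Tregs. The wild-type change was 3.00 higher on the log2 scale than the knockout change (SE 0.28, edgeR adjusted p = 0.00144). Klrg1 had a difference of 4.91 (SE 0.67, adjusted p = 0.0113), with 0.546 and 0.7145 CPM in knockout de novo Tregs and 0.46, 0.876 and 0.458 CPM in knockout pre-Tregs. Knockout de novo Tregs thus lay at the pre-Treg level for Klrg1 and below it for Nkg7. The chemokine gene Ccl5 (difference 3.58, SE 0.47), the secreted suppressor Fgl2 (3.46, SE 0.42), the checkpoint receptor Tigit (3.43, SE 0.42) and Ttc39c (3.00, SE 0.37) differed in the same direction, as did the G protein regulator Rgs2 (1.71, SE 0.27) and the protease inhibitor Cst7 (1.59, SE 0.23). Rcn1, which encodes a calcium-binding protein of the endoplasmic reticulum, differed the other way (−1.68, SE 0.18): it had 69.9 and 81.9 CPM in wild-type de novo Tregs and 53.66 and 49.99 CPM in wild-type pre-Tregs, and the knockout had 176 and 194 CPM in de novo Tregs and 41.4, 36.6 and 40.0 CPM in pre-Tregs. Foxp3, Il2ra and the G2/M genes were not among the 11, and a gene outside them is not shown to change alike in both genotypes.

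**Figure D4:**
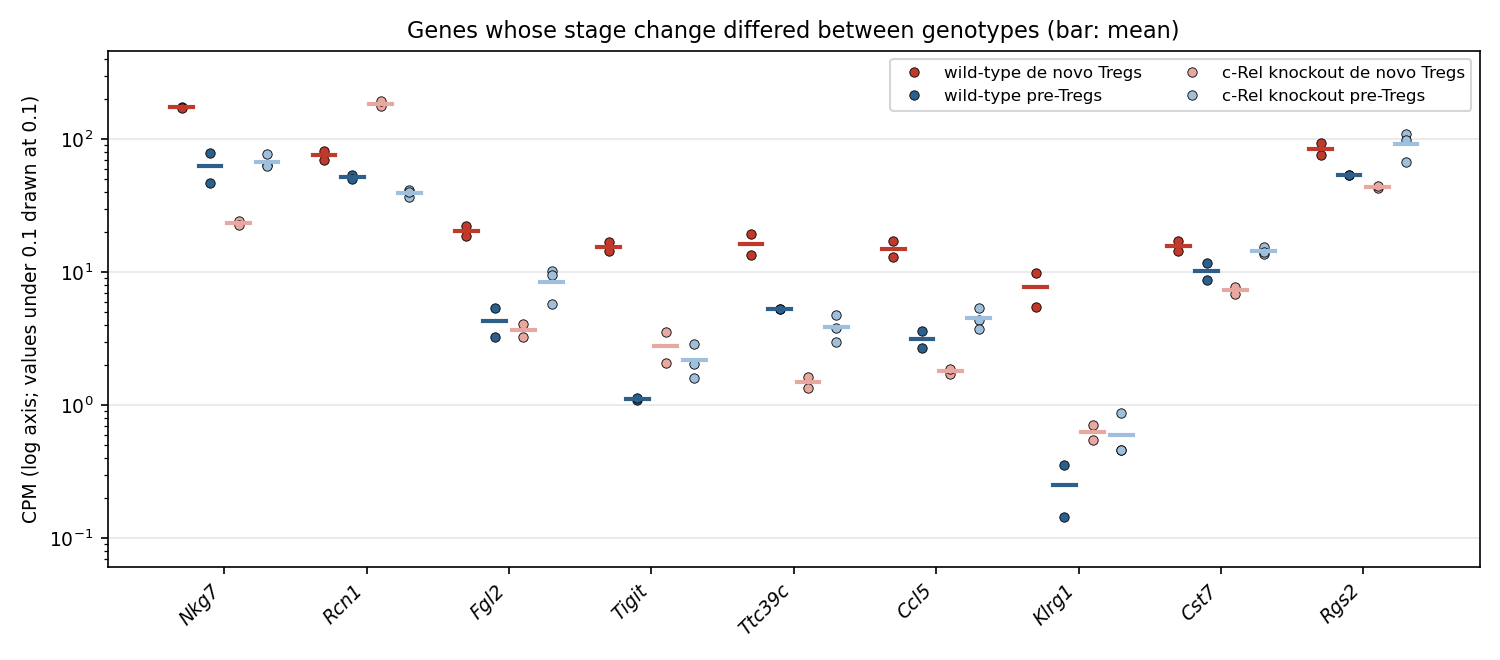
CPM on a log axis of the 9 genes with a called difference between genotypes that were also called in wild type, with a point per library and a bar at the group mean. Within each gene the order is wild-type de novo Tregs, wild-type pre-Tregs, knockout de novo Tregs and knockout pre-Tregs; for 8 of the 9 genes knockout de novo Tregs stand lowest or near the pre-Tregs, and Rcn1 is highest in them.

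Interferon response genes rose in 24 of 46 members (52.17%) and fell in 0, with a median log2 fold change of 0.55. Of all tested genes 16.1% rose and 14.7% fell. Gbp3, a guanylate-binding protein, had 63.1 and 74.2 CPM in de novo Tregs, against 18.1 and 15.7 CPM in pre-Tregs (2.02, SE 0.17, edgeR adjusted p = 1.368e-05). Irf1, a factor induced by interferon gamma, had 547 and 581 CPM in de novo Tregs and 349 and 317 CPM in pre-Tregs (0.76, SE 0.13), and the peptide transporter gene Tap1 rose by 1.07 (SE 0.21). The groups stood apart for Gbp3 and Irf1, whereas Isg15, a ubiquitin-like protein induced by type I interferon and named after its values were seen, overlapped between them (0.06, SE 0.26). The rises numbered 17 and 10 without de novo Treg replicates 1 and 2, and 14 and 10 without pre-Treg replicates 1 and 2, and 9 were among the 20 members with no shared exon base and few shared stretches. Of the 24 risen members, 8 lay closer to de novo Tregs in knockout pre-Treg replicate 2.

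Of 19 TGF-beta signalling genes 5 rose (26.32%) and 3 fell (15.79%), against 16.1% and 14.7% of all tested genes. Smad7, the inhibitory Smad induced by TGF-beta, had 113 and 105 CPM in de novo Tregs, against 38.1 and 40.4 CPM in pre-Tregs (log2 fold change 1.47, SE 0.15, edgeR adjusted p = 4.435e-05). Furin, the convertase that matures TGF-beta, had 122 and 127 CPM in de novo Tregs and 45.5 and 47.0 CPM in pre-Tregs (1.43, SE 0.16). Tgfbr3, the co-receptor betaglycan, had 42.0 and 30.9 CPM in de novo Tregs and 156 and 109 CPM in pre-Tregs (−1.86, SE 0.28). The groups did not overlap for these, and 1 of the 8 called members lay closer to de novo Tregs in knockout pre-Treg replicate 2.

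Metabolic lists held calls in both directions. Of all tested genes 16.1% rose and 14.7% fell. The shares were 9.091% and 18.18% for sterol synthesis, 28.57% and 21.43% for amino acid transporters and 27.27% and 9.091% for glycolysis. They were 30.26% and 6.579% for cytosolic ribosomal protein genes and 18.18% and 45.45% for mitochondrially encoded genes. Of 22 glycolysis genes 6 rose and 2 fell, among them the glucose transporter gene Slc2a1 (log2 fold change 1.20, SE 0.23) and, downward, Gapdh (−0.72, SE 0.18), whose stretches are shared to 23.97%. The glycolysis rises numbered 3, 3, 2 and 4 and the falls 0, 0, 1 and 0 in the fits without de novo Treg replicates 1 and 2 and pre-Treg replicates 1 and 2, and there were 13 rises without knockout pre-Treg replicate 2. Of 14 amino acid transporters 4 rose, including the glutamine transporter gene Slc1a5 (1.22, SE 0.19), and 3 fell. Of 22 sterol synthesis genes 2 rose and 4 fell, and fits without 1 wild-type library called at most 1 rise and 1 or 2 falls. In knockout pre-Treg replicate 2, 4 of the 8 called glycolysis genes, 2 of the 7 called transporters and 2 of the 6 called sterol genes lay closer to de novo Tregs. Cytosolic ribosomal protein genes rose in 23 of 76 and fell in 5, but fits without 1 wild-type library called 1 to 7 rises, and in knockout pre-Treg replicate 2, 25 of the 28 called members lay closer to de novo Tregs. The same held for 8 of the 9 called ribosome biogenesis genes and 5 of the 7 called mitochondrially encoded genes. Of 11 mitochondrially encoded genes, whose share can follow RNA quality, 5 fell and 2 rose, and their summed level was 4517 and 4833 CPM in de novo Tregs and 6281 and 8999 CPM in pre-Tregs; fits without 1 wild-type library called 0 to 4 falls and 0 rises. The 2 mitochondrially encoded genes that rose, mt-Atp6 and mt-Co3, had 0 counts in both wild-type pre-Treg libraries. In de novo Tregs they stood near the floor, at 0.5368 and 0.633 CPM and at 1.879 and 1.229 CPM, and 100% of their stretches are shared. Only 12 of the 76 ribosomal protein genes have no shared exon base and few shared stretches. The ribosomal protein rises numbered 38 without knockout pre-Treg replicate 2, 36 with only the 4 wild-type thymic libraries and 12 with only the 9 thymic libraries.

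**Figure D5:**
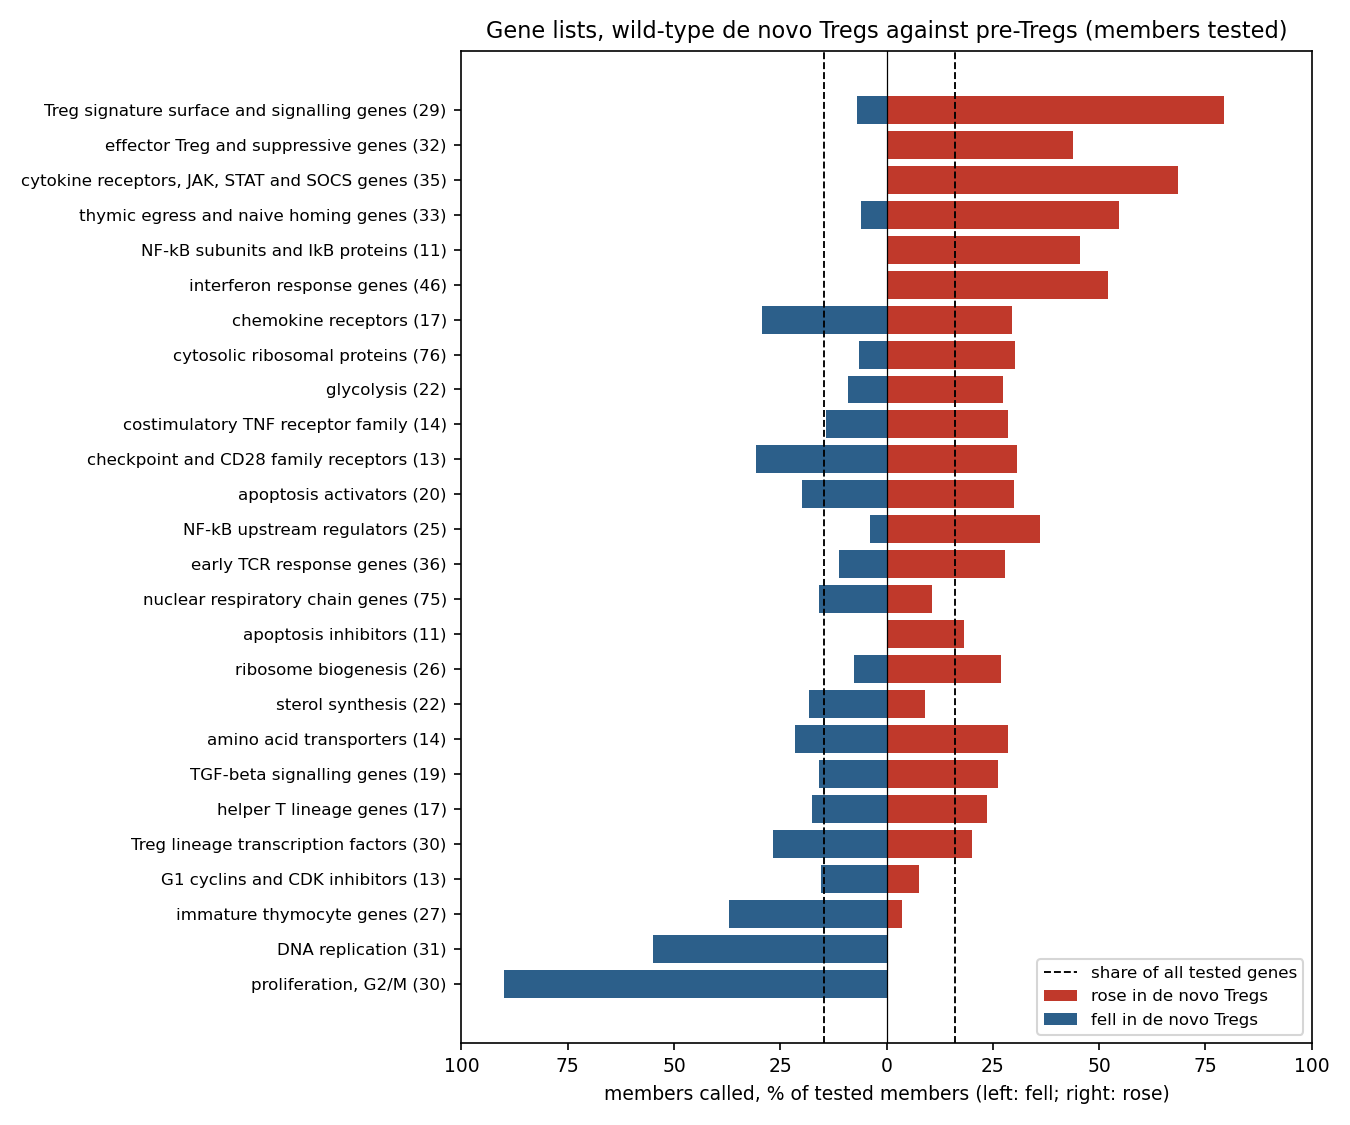
Percent of tested members called for each gene list drawn, with falls in de novo Tregs to the left and rises to the right, the number of members tested in parentheses and dashed lines at the shares of all tested genes, 14.7% and 16.1%. Of the lists drawn, the Treg signature, cytokine, exit and interferon lists extend furthest to the right, and the DNA replication and G2/M lists to the left.

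Beyond the lists, the 15 largest rises among well-read genes held 8 with over 10% of their stretches shared, and the 15 largest falls held 0. Coro2a, which encodes an actin-binding coronin, had 353.5 and 270.4 CPM in de novo Tregs, against 8.56 and 21.3 CPM in pre-Tregs (log2 fold change 4.38, SE 0.34, edgeR adjusted p = 1.106e-05). C1qtnf6, of the C1q and TNF related family, had 16.3 and 15.4 CPM in de novo Tregs and 0.58 and 0.567 CPM in pre-Tregs (4.77, SE 0.39). Ntn4, a netrin of basement membranes, had 30.7 and 39.0 CPM in de novo Tregs and 0.798 and 2.27 CPM in pre-Tregs. Wild-type splenic Tregs held 354 and 324 CPM of Coro2a, near the de novo Treg level. Actg1, the gamma-actin gene, had 276 and 311 CPM in de novo Tregs and 1.595 and 2.55 CPM in pre-Tregs, but knockout pre-Treg replicate 2 held 356 CPM and the other 2 knockout pre-Treg libraries 1.496 and 3.318 CPM. Rpl6l and Rps27rt, retrocopy-like ribosomal genes with 66.07% and 90.91% of stretches shared, showed the same pattern.

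The largest falls had no such shared sequence. Chl1, a neural cell adhesion molecule, had 1.96 and 1.19 CPM in de novo Tregs, against 33.5 and 16.3 CPM in pre-Tregs (log2 fold change −3.98, SE 0.49, edgeR adjusted p = 0.000277). Nrgn, a calmodulin-binding protein known from neurons, had 1.76 and 1.45 CPM in de novo Tregs and 21.0 and 21.6 CPM in pre-Tregs (−3.72, SE 0.33). Pde3b, a cyclic nucleotide phosphodiesterase gene that Foxp3 is known to repress, had 30.6 and 19.03 CPM in de novo Tregs and 197 and 163 CPM in pre-Tregs (−2.86, SE 0.34). Marcks, a substrate of protein kinase C, had 11.5 and 9.98 CPM in de novo Tregs and 78.1 and 87.7 CPM in pre-Tregs (−2.95, SE 0.43). Both de novo Treg libraries lay below both pre-Treg libraries for all 4, which the rule that chose the largest falls required. The same order held for 36.7% of all tested genes.

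The cells read as CD4 T cells in both stages. Cd4 had 723 and 705 CPM in de novo Tregs and 900 and 824 CPM in pre-Tregs and was not called (log2 fold change −0.27, SE 0.16); Cd8a, like Cd4 named after its values were seen, had 4.75 and 4.13 CPM in de novo Tregs and 6.16 and 4.32 CPM in pre-Tregs. Klrd1, a natural killer receptor, had 0.575 and 0.633 CPM in de novo Tregs and 5.004 and 3.328 CPM in pre-Tregs (−2.77, SE 0.44), and Zbtb16, which encodes PLZF of innate-like T cells, had 0.23 and 0.223 CPM in de novo Tregs and 3.99 and 2.69 CPM in pre-Tregs (−3.85, SE 0.62). Of 6 markers of gamma delta and invariant NKT cells 2 fell and 1, Slamf1, rose (0.62, SE 0.15), and their summed level was 400.2 and 463.6 CPM in de novo Tregs and 347 and 366 CPM in pre-Tregs. Of 12 markers of CD8 T and NK cells 5 fell and 1 rose, and their summed level was 71.6 and 76.1 CPM in de novo Tregs and 110 and 94.7 CPM in pre-Tregs. B and plasma cell markers summed to 39.3 and 35.4 CPM in de novo Tregs and 10.7 and 25.1 CPM in pre-Tregs, with 1 of 11 risen. Myeloid and dendritic markers summed to 181 and 179 CPM in de novo Tregs and 97.1 and 154 CPM in pre-Tregs, with 2 of 20 risen and 2 members at 0 in all 4 libraries. Most of these sums was the single gene Cst3, with 145.7 and 152.7 CPM in de novo Tregs and 83.03 and 103.2 CPM in pre-Tregs. MHC class II genes and the invariant chain summed to 401 and 357 CPM in de novo Tregs and 218 and 240 CPM in pre-Tregs, with 2 of 9 risen. Thymic stroma markers summed to 247 and 245 CPM in de novo Tregs and 197 and 192 CPM in pre-Tregs, with 1 of 7 risen and 5 members at 0 in all 4 libraries. The 1 that rose, Pecam1, made most of these sums, with 223.5 and 225.9 CPM in de novo Tregs and 178.5 and 157.1 CPM in pre-Tregs. Erythroid and platelet markers differed between libraries of a stage, with 112 and 3.76 CPM in de novo Tregs and 6.38 and 71.5 CPM in pre-Tregs, and 0 of 6 were called. Shares risen were 9.091% for B and plasma cell, 10% for myeloid and dendritic, 22.22% for MHC class II and 14.29% for stroma markers. For CD8 T and NK cell markers 8.333% rose and 41.67% fell, and for gamma delta and invariant NKT cell markers 16.67% and 33.33%. Of all tested genes 16.1% rose and 14.7% fell. The part that other cells had in the results was not tested.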

How the data were processed

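RNA was sequenced from 13 libraries of sorted mouse T cells, of which 4 form the comparison and the rest share the estimate of spread. The authors deposited raw counts per gene in 3 tables: the pre-Treg table lists all gene types with coordinates and an exon length per gene, another deposited value, and the other tables list 22048 protein-coding genes. STAR 2.5.2, the featureCounts program of Subread 1.5.2, Picard 2.9.0, limma, FastQC and MultiQC are listed by the submitters' processing notes, with the build GRCm38; no source used here gives the annotation release or the strand setting.

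Genes were joined by identifier. Counts were filtered with filterByExpr (minimum count 10, minimum total 15), scaled by TMM and fitted as 6 group means over all 13 libraries with edgeR 4.0.16 in R 4.3.3, using its quasi-likelihood test with Benjamini-Hochberg adjustment over 13058 genes and a threshold of 0.05. SE is the log2 fold change divided by the square root of the F value. The difference between genotypes is a contrast of the same fit. Exon overlap came from the deposited coordinates, and shared stretches of 50 bases from the transcripts of the annotation supplied, with 10% as the limit for few shared stretches. The script was tested on simulated data. Alternatives were DESeq2 1.42.0, limma-voom 3.58.1, other scalings, no count filter, fewer libraries and a replicate block; the limit to genes without shared sequence was chosen after seeing the data. Counts of 27455039 and 28235996 in de novo Tregs and 13656304 and 13698722 in pre-Tregs set the precision, and floors of 3 counts cover counting error only.

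Named genes are the 15 largest called rises and 15 largest called falls that reached 10 CPM in the higher of both groups without overlap, up to 6 called members of each list by adjusted p, a set of Treg and thymocyte genes named whatever their p, and up to 10 genes for the difference between genotypes. The members and lists were chosen with earlier results of these data known, so a count over a list is a description.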

Additional observations from a re-analysis of the deposited data

Results flagged for a closer look

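For 9 genes the change between de novo Tregs and pre-Tregs differed between wild type and knockout by a test of the difference itself, at an edgeR adjusted p under 0.05, and also passed the test within wild type. The differences, wild-type change minus knockout change on the log2 scale, were 4.91 for Klrg1, 3.58 for Ccl5, 3.46 for Fgl2, 3.43 for Tigit, 3.00 for Nkg7, 3.00 for Ttc39c, 1.71 for Rgs2, 1.59 for Cst7 and −1.68 for Rcn1. Only 2 to 3 libraries stand behind each group, and how many genes pass varied widely with the tool.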

How the results depend on the processing

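All libraries together gave 2101 rises and 1914 falls. A fit of only the 4 wild-type thymic libraries called 6340 of 11794 genes (3205 and 3135), among them 3948 of the 3969 earlier calls it tested. Leaving out 1 library gave 1274 to 6025 calls, 774 to 3142 rises and 500 to 2883 falls. Genes without shared sequence gave 2525 calls (1309 and 1216). Of the 213 named genes called, 138 was the lowest number with 1 library left out, and 136 were called among genes without shared sequence, where fewer were tested. The difference between genotypes, called for 11 genes, gave 20 with DESeq2's size factors, 17 with no TMM factors, 33 with a gene-length offset, 76 with no count filter, 213 with DESeq2, 3 with limma-voom, 3 with only the 9 thymic libraries, 29 among genes without shared sequence and 5 to 127 with 1 library left out. The cause was not tested.

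Genes that were never called changed sign. With no TMM factors the log2 fold change was −0.13 for Bach2, −0.0337 for Il7r, −0.0618 for Mcl1 and −0.14 for Rel. With the gene-length offset it was 0.029 for Cd69 and 0.0206 for Lef1, with the 9 thymic libraries −0.0026 for Rel and among genes without shared sequence 0.0351 for Egr2. With 1 library left out, the values ran between −0.0802 and 0.0248 for Egr2, −0.0236 and 0.0374 for Rel, −0.347 and 0.1717 for Cd69, −0.3512 and 0.1737 for Nr4a1, −0.378 and 0.0232 for Lef1, −0.0796 and 0.1046 for Bach2, and −0.1729 and 0.4523 for Il7r.

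Replicate numbers only share a number across groups: the deviations of same-numbered libraries had r = −0.0469 across 13058 genes, which are not independent replicates. With the replicate block 1952 genes rose, 1695 fell and 9 differed between genotypes.

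Depth limits genes at or near 0 counts, and 2 libraries per group limit every call.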

Other observations

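Some called genes had no read in 1 stage: 29 were at 0 in both wild-type pre-Treg libraries and 22 at 0 in both wild-type de novo Treg libraries. Gbp2b, an interferon-induced guanylate-binding protein, had 124 and 193 counts in de novo Tregs and 0 in both pre-Treg libraries, at least 27.8-fold higher against a floor of 3 counts per library. S1pr3, a sphingosine 1-phosphate receptor, had 0 counts in both de novo Treg libraries and 19 and 22 counts in pre-Tregs, at least 12.9-fold lower in de novo Tregs. Both were chosen after their values were seen.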
